A study of Mus musculus with 4 samples.

Results

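The response of miR-9-blocked mouse lung fibroblasts to transforming growth factor beta 1 (TGFB1) was described across 9345 of the 12767 gene symbols in the deposited table. The cells were MLg fibroblasts, a line grown from mouse lung. In the tested condition, called TGFB1 with miR-9-LOF, the cells received an antagomiR against miR-9-5p and then TGFB1, and in its reference, called miR-9-LOF, they received the same antagomiR and no TGFB1. An antagomiR is a modified antisense oligonucleotide that binds a mature microRNA and keeps it from its targets, and LOF stands for loss-of-function. The control antagomiR was used in the other pair of conditions, called TGFB1 and control. The labels give 5 ng/ml TGFB1 for 4 h, added 20 h after transfection. They differ on the antagomiR, with 60 nM and harvest at 24 h in the protocol and 10 nM and 48 h in the design text, and this was not settled. Each condition had 1 library of total RNA, and the sources do not say if these were grown as independent cultures. The library titles carry the tag riZero, which may stand for removal of ribosomal RNA. No difference below was therefore tested across replicates, and no p-value is given.

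A gene was a member if its transcript with the highest RPKM (reads scaled to transcript length in kilobases and to library size) averaged 1 RPKM or more over the TGFB1 with miR-9-LOF and the miR-9-LOF library. Changes are given as log2 of (RPKM + 1) in the TGFB1 with miR-9-LOF library over that in the miR-9-LOF library, which understates the change of genes near 1 RPKM. A gene is called risen where this value is at least 0.58 and fallen where it is -0.58 or less, the limit used in the study's methods. Ratios are plain ratios of RPKM. Their 95% intervals are exact binomial intervals of the read counts and cover counting error only, because a read count without molecular identifiers and without a second library says nothing of the spread between cultures.

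TGFB1 binds a receptor complex of serine/threonine kinases that phosphorylates SMAD2 and SMAD3, which enter the nucleus with SMAD4 and act on target genes within hours. In fibroblasts this pathway is known for raising matrix proteins, matrix crosslinking enzymes, integrins and inhibitors of proteolysis, and for lowering the ID genes that bone morphogenetic proteins (BMPs) induce. MicroRNA-9 is encoded at 3 mouse loci that yield the same mature miR-9-5p. Its sequence is shown because it is the molecule blocked in both libraries, with the seed (bases 2 to 8) in capitals, from RefSeq for GRCm38.p6. It lies at chr3:88215613-88215635, chr7:79505279-79505301 and chr13:83738821-83738843, each on the plus strand.
mmu-miR-9-5p: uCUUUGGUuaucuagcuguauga
The level of mature miR-9 was not analysed here, so the block itself could not be checked in these libraries.

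The library totals were 19019174 reads for TGFB1 with miR-9-LOF and 14719887 for miR-9-LOF, with 21807187 for TGFB1 and 27416665 for control. Rn45s, the ribosomal RNA precursor, took 21.4% of counts in the TGFB1 with miR-9-LOF library and 27.4% in the miR-9-LOF library, so that all other RNAs shared a larger remainder in the TGFB1 with miR-9-LOF library. Mir6236 took 5.23% and 4.56% of counts in those libraries, against 0.441% with TGFB1 and 0.684% in control. Of 13 fibroblast markers, 11 were members, and their sum with 1 further marker in the table was 1783 RPKM for TGFB1 with miR-9-LOF and 1508 RPKM for miR-9-LOF. Of 11 epithelial markers 1 was a member, of 8 endothelial markers 0, and of 9 leukocyte markers 2. The endothelial markers summed to 0.0625 RPKM for TGFB1 with miR-9-LOF and 0.115 RPKM for miR-9-LOF, the epithelial markers to 3.24 and 3.75 RPKM, and the leukocyte markers to 5.22 and 7.35 RPKM. Vim, the intermediate filament of mesenchymal cells, was at 659 and 586 RPKM in the same libraries. The summed fibroblast markers were thus high in both libraries. Defining markers of the other cell types such as Epcam, Pecam1 and Ptprc had no entry in the table used here. The fibroblast marker Thy1 had no entry either. This table lists transcripts with 21 or more reads over the 4 libraries.

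After TGFB1, 666 of the 9345 genes rose in miR-9-blocked cells (7.13%) and 232 fell (2.48%). The median log2 change of all genes was 0.05, with quartiles of -0.16 and 0.30. At a limit of log2 1 there were 70 genes that rose and 25 that fell. The genes just inside the limit had changes of 0.58006 and -0.58049, and those just outside 0.57982 and -0.57828. Of the 666 risen genes, 644 had a ratio interval wholly above 1, and of the 232 fallen genes, 218 had one wholly below 1. The balance between risen and fallen genes depended on the scale. With Rn45s, Mir6236 and Lars2 left out of the library totals, 417 genes rose and 371 fell, which put the risen share of changed genes at 52.9% in place of 74.2%. The median of all genes was then -0.03. Every gene that the rule for named genes picked and that had passed the limit kept its direction under this scale. That was bound to hold, because the scale moved changes by less than the limit. Of these 149 genes, 20 dropped below the limit.

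**Figure D1:**
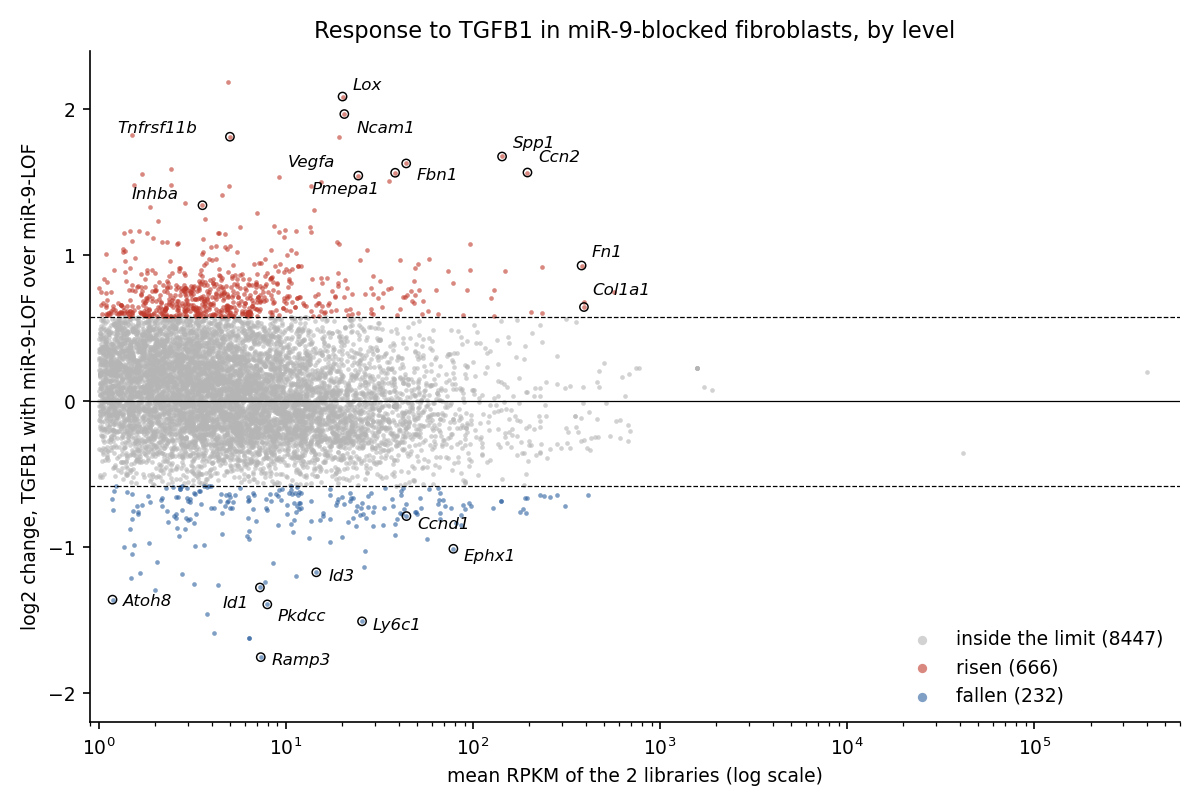
Each point is 1 of 9345 genes, with the mean RPKM of both libraries on the x axis (log scale) and the log2 change after TGFB1 in miR-9-blocked cells on the y axis; dashed lines mark a change of 0.58 in either direction. Of the labelled genes, Lox, Ncam1, Tnfrsf11b and Spp1 stand highest and Ramp3, Ly6c1 and Pkdcc lowest. Some unlabelled genes, such as Snord61, lie among or above them. The 2 points with levels far to the right of all others are Rn45s and Mir6236.

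The early TGFB targets, genes that TGFB1 is known to raise within hours, were the group of protein-coding genes with the highest median. Of 30 measured, 15 rose and 0 fell, and their median was 0.58 against 0.05 over all genes. Ccn2, which encodes the matricellular protein connective tissue growth factor (chr10:24595442-24598683, mm10), reached 293 RPKM in TGFB1 with miR-9-LOF cells, against 98.1 RPKM in miR-9-LOF cells, a ratio of 2.98 (2.87 to 3.10). It was the most abundant of the 70 genes that rose past log2 1. Lox, the lysyl oxidase that crosslinks collagen and elastin, had 33.1 RPKM in TGFB1 with miR-9-LOF cells and 7.03 RPKM in miR-9-LOF cells, a ratio of 4.71 (4.27 to 5.21). Ncam1, a neural cell adhesion molecule (chr9:49502129-49799393), had 33.2 RPKM with TGFB1 and 7.76 RPKM without, a ratio of 4.28 (3.95 to 4.65). Lox and Ncam1 had the largest rises of all protein-coding genes with a mean of 5 RPKM or more, at log2 changes of 2.09 and 1.97. Ccn4, another matricellular protein of the same family as Ccn2, had 30.4 RPKM with TGFB1 and 7.97 RPKM without (ratio 3.82, 3.49 to 4.19), and both of its listed transcripts changed by 1.81 to 1.82 on the log2 scale.

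Adam12, a metalloprotease of mesenchymal cells, had 8.32 RPKM in TGFB1 with miR-9-LOF cells and 3.07 RPKM in miR-9-LOF cells (log2 change 1.19). Timp1, an inhibitor of matrix metalloproteases, had 156 and 94.9 RPKM in those libraries (log2 change 0.71). Among transcription regulators, Snai1, a repressor known for epithelial-mesenchymal transition, rose by 0.84 and Bhlhe40, a basic helix-loop-helix repressor, by 0.88 on the log2 scale. Tagln, the actin-binding protein transgelin, rose by 0.60 and dropped below the limit, at 0.49, when the 3 abundant transcripts were left out of the totals. Of the members that stayed inside the limit, Ccn1 had 177 and 134 RPKM, Junb 40.1 and 32.4 RPKM, and Cdkn1a 20.7 and 23.7 RPKM in TGFB1 with miR-9-LOF and miR-9-LOF cells.

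**Figure D2:**
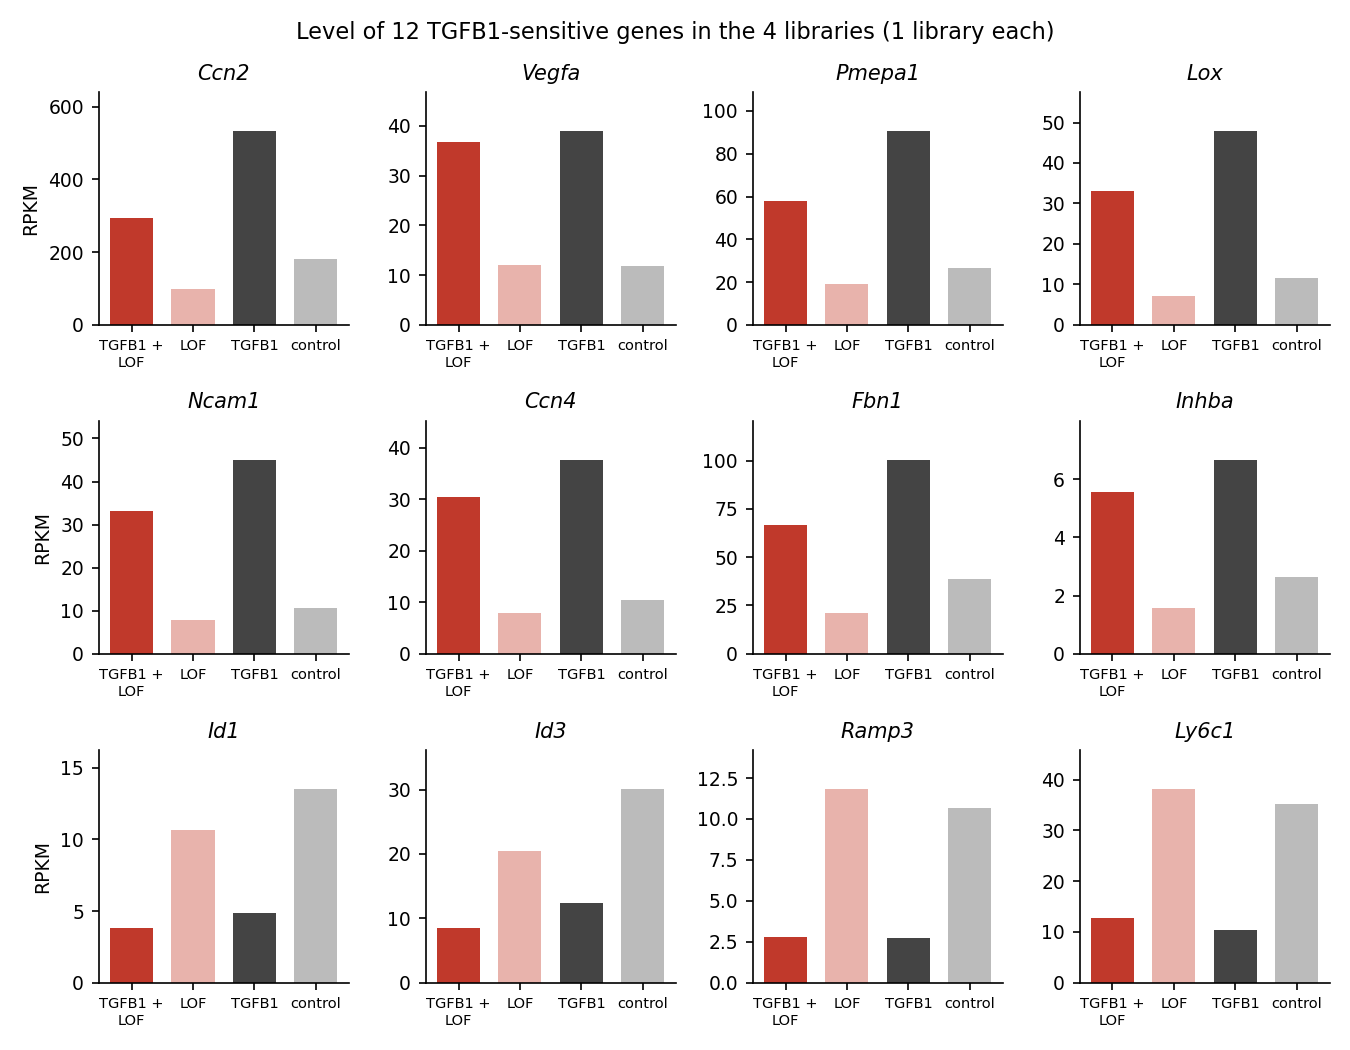
Bars give the RPKM of 12 genes in the 4 libraries, 1 library each, with LOF for the miR-9 antagomiR; each panel has its own y axis from 0. Ccn2, Vegfa, Pmepa1, Lox, Ncam1, Ccn4, Fbn1 and Inhba are higher with TGFB1 in both pairs, while Id1, Id3, Ramp3 and Ly6c1 are lower with TGFB1 in both pairs.

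Inhibitors of the signal were among the genes that rose. Among 16 measured SMADs and inhibitors, 4 rose and 1 fell, with a median of 0.31. All 4 that rose encode proteins known to limit SMAD signalling. Pmepa1, a membrane protein that keeps SMAD2 and SMAD3 from the receptor, had 57.8 RPKM in TGFB1 with miR-9-LOF cells and 18.9 RPKM in miR-9-LOF cells (ratio 3.06, 2.88 to 3.26). Skil, the SMAD corepressor SnoN, had 3.89 and 1.32 RPKM, a log2 change of 1.08. Ldlrad4, a relative of Pmepa1, had 2.64 and 0.952 RPKM. Smurf2, a ubiquitin ligase for SMADs and receptors, had 5.31 and 3.16 RPKM, a log2 change of 0.60 that lay close to the limit. Smad7, the inhibitory SMAD of this pathway, had 5.71 and 5.64 RPKM, a ratio of 1.01 (0.883 to 1.16). Smad6, the inhibitory SMAD of the BMP branch, was the 1 that fell, with 1.95 RPKM with TGFB1 and 3.48 RPKM without. Smad3 itself was lower without passing the limit, with 7.11 and 10.5 RPKM.

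Of 20 measured ligands, receptors and binding proteins of the TGFB family, 5 rose and 1 fell. Inhba, the subunit of activin A (chr13:16004256-16031609), had 5.56 RPKM in TGFB1 with miR-9-LOF cells and 1.59 RPKM in miR-9-LOF cells, a ratio of 3.50 (2.93 to 4.21). Fst, the activin antagonist follistatin, fell to 3.96 RPKM in TGFB1 with miR-9-LOF cells, against 8.42 RPKM in miR-9-LOF cells. Its relatives Fstl1 and Fstl3 rose, with log2 changes of 0.91 and 0.86. Tgfb3, a ligand, and Acvr1, a receptor for activins and BMPs, both rose by 0.72. Tgfb1 itself stayed inside the limit, with 13.8 and 9.53 RPKM in TGFB1 with miR-9-LOF and miR-9-LOF cells.

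In the BMP branch the ID genes fell. Of 11 measured ligands, receptors and ID targets, 5 fell and 2 rose, with a median of -0.53. Id1, an inhibitor of helix-loop-helix factors (chr2:152736251-152737410), had 3.82 RPKM in TGFB1 with miR-9-LOF cells and 10.7 RPKM in miR-9-LOF cells, a ratio of 0.358 (0.265 to 0.480). Id3 (chr4:136143822-136145392) had 8.54 and 20.5 RPKM, a ratio of 0.417 (0.340 to 0.509), and Id2 had 0.747 and 2.20 RPKM from 18 and 41 reads. Atoh8, a helix-loop-helix factor, had 0.224 and 2.14 RPKM from 10 and 74 reads. Bmpr2, the type II BMP receptor, was among the 2 that rose, with 5.22 and 2.22 RPKM. The members that fell were thus the ID genes, Atoh8 and Smad6, and the ligand Bmp4 stayed inside the limit with 1.94 and 3.24 RPKM.

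Promoter sequences are shown for the leading risen genes Fbn1 and Spp1 and for Id2 and Id3, which fell together, because they let the motifs of the pathway be read against the direction of change. They run from 250 bases before to 50 after the start site in RefSeq for GRCm38.p6. The first start listed was used for each gene. Capitals mark matches on either strand to the SMAD element CAGACA, the palindrome GTCTAGAC, the BMP-type SMAD element GGCGCC, the AP-1 site TGANTCA, the TEAD site GGAATG, the E-box CACCTG or the GC box GGGCGG. Overlapping matches run together. The positions are chr2:125506389-125506688 on the minus strand for Fbn1, chr5:104434861-104435160 on the plus strand for Spp1, chr12:25096043-25096342 on the minus strand for Id2 and chr4:136143572-136143871 on the plus strand for Id3.
Fbn1: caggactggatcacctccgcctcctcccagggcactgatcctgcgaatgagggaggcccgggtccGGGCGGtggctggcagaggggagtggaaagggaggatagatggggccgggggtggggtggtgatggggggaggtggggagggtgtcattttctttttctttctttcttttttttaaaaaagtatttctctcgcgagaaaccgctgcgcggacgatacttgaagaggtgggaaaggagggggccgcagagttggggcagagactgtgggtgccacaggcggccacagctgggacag
Spp1: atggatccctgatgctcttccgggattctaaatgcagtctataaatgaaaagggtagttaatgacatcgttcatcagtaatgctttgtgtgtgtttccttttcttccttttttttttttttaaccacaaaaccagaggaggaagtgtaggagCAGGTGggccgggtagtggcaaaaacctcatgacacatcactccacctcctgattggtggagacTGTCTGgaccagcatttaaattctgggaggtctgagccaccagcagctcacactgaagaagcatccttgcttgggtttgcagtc
Id2: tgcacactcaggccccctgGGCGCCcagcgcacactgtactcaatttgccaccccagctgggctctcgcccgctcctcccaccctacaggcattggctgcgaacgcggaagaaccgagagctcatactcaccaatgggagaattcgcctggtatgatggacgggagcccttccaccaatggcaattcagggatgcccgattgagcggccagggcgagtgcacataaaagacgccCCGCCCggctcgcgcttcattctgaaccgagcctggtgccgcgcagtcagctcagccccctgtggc
Id3: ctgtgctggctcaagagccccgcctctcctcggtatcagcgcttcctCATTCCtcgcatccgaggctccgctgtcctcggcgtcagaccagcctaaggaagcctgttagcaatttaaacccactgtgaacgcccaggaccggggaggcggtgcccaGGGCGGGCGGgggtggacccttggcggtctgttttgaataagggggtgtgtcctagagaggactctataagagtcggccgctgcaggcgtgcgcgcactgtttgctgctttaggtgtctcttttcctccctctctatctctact
Spp1 held 1 match to CAGACA and 1 to CACCTG, and Id2 held 1 to GGCGCC. Of the 9345 genes, 7327 had an entry. CAGACA was found in 15.8% of 501 risen, 25.3% of 174 fallen and 14.8% of all 7327 promoters, and GGCGCC in 28.1%, 20.1% and 22.9%. GTCTAGAC was found in 0.200%, 1.15% and 0.218%, TGANTCA in 4.59%, 7.47% and 4.74%, GGAATG in 11.6%, 7.47% and 11.4%, CACCTG in 14.2%, 12.6% and 15.04%, and GGGCGG in 70.9%, 51.7% and 68.1%. These are descriptions of the letters in this window. Histone genes made up 20.7% of all fallen genes, and their part in the shares of fallen promoters was not tested.

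Several abundant matrix genes rose. Of 29 measured collagens and collagen enzymes, 7 rose and 0 fell, with a median of 0.24. Fn1, the matrix glycoprotein fibronectin (chr1:71585473-71653280), had 499 RPKM in TGFB1 with miR-9-LOF cells and 262 RPKM in miR-9-LOF cells, a ratio of 1.91 (1.88 to 1.93). Fbn1, the microfibril protein fibrillin 1 (chr2:125300594-125506485), had 66.9 and 20.9 RPKM, a ratio of 3.19 (3.07 to 3.32). Col7a1, the anchoring fibril collagen, had 4.15 and 0.714 RPKM, the largest change among the collagens, at 1.59 on the log2 scale. Col5a1, which starts fibrils, had 77.5 and 38.9 RPKM, and Col3a1, a fibrillar collagen of soft tissues, had 41.0 and 22.8 RPKM. Col1a1, the main fibrillar collagen chain, had 478 and 305 RPKM, a log2 change of 0.64, which dropped to 0.54 without the 3 abundant transcripts in the totals. Of 5 lysyl oxidases 2 rose, Lox and Loxl2, while Loxl1, Loxl3 and Loxl4 had changes between -0.17 and -0.10. Of 32 glycoproteins, fibrillins and proteoglycans 6 rose and 3 fell. Postn, the matricellular protein periostin, Vcan, a large proteoglycan, and Mfap5, a microfibril protein, rose by 1.17, 0.87 and 0.97, and Tnxb, the glycoprotein tenascin X, and Nid2, a basement membrane protein, fell by 1.00 and 0.70.

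Among 26 measured integrins and focal adhesion genes, 7 rose and 1 fell, and their median was 0.33. Itga2, a collagen-binding subunit, had 4.06 RPKM in TGFB1 with miR-9-LOF cells and 0.816 RPKM in miR-9-LOF cells (ratio 4.97, 3.95 to 6.32). Itgb1, the beta subunit it pairs with, had 67.1 and 34.4 RPKM, and Itga5, which with Itgb1 binds fibronectin, had 96.1 and 51.4 RPKM. Itga3, a laminin-binding subunit, fell to 10.8 RPKM in TGFB1 with miR-9-LOF cells, against 19.7 RPKM in miR-9-LOF cells. Of 28 contractile and cytoskeletal genes, 4 rose and 0 fell. Myh10, nonmuscle myosin IIB, had 33.2 and 16.5 RPKM and Cald1, the actin-binding protein caldesmon, had 118 and 68.8 RPKM. Acta2, the smooth muscle actin that marks myofibroblasts, stayed inside the limit with 214 and 164 RPKM, a ratio of 1.30 (1.26 to 1.34).

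Secreted growth factors were among the strongest responders. Of 30 measured growth factors, cytokines and receptors, 9 rose and 2 fell. Vegfa, the vascular growth factor, had 36.7 RPKM in TGFB1 with miR-9-LOF cells and 11.9 RPKM in miR-9-LOF cells (ratio 3.08, 2.81 to 3.38), and its 10 listed transcripts changed by 1.497 to 1.549. Pdgfa, a platelet-derived growth factor chain, had 20.4 and 6.70 RPKM. Tnfrsf11b, the decoy receptor osteoprotegerin, had 8.36 and 1.67 RPKM. Fgf2, a fibroblast growth factor, rested on 38 and 1 reads in its listed transcript, a ratio of 29.4 with an interval of 4.97 to 1192. The 2 that fell were Igfbp6, a binding protein for insulin-like growth factors, with 13.4 and 26.5 RPKM, and Vegfd, a lymphatic growth factor, with 7.74 and 14.4 RPKM. Spp1, the secreted phosphoprotein osteopontin, had 218 and 67.6 RPKM, a ratio of 3.23 (3.04 to 3.42). Of the other leading genes, Cdh11, a mesenchymal cadherin, rose by 1.31, Tnnt2, a troponin chain of heart muscle, had 23.3 and 7.58 RPKM, and Ptgs2, the inducible prostaglandin synthase, rose by 1.09. The non-coding Gm15270 had 52.8 and 17.9 RPKM, but its annotated span (chr10:24331688-24595803) overlaps the start of Ccn2, and reads were counted on both strands, so its reads cannot be told apart from those of Ccn2 where they overlap.

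Of 23 measured mesenchymal transcription factors, 7 rose and 0 fell. Runx1, a runt-domain factor, had 6.39 RPKM in TGFB1 with miR-9-LOF cells and 2.33 RPKM in miR-9-LOF cells, Foxp1, a forkhead factor, had 7.18 and 3.49 RPKM, and Zeb1, a zinc finger repressor of epithelial genes, had 5.48 and 2.70 RPKM. Of 7 Notch pathway genes 3 rose and 1 fell: the ligand Jag1 and the target Hes1 rose by 1.08 and 1.06, the coactivator Maml2 rose by 0.77, and the receptor Notch3 fell by 0.70. Of 21 YAP-TEAD genes 3 rose (14.3%), Ccn2, F3 and Lats1. Of 23 immediate early genes 2 rose (8.70%), Egr2 and Klf6, against 7.13% of all genes.

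The largest fall among protein-coding genes with a mean of 5 RPKM or more was that of Ramp3. This receptor activity-modifying protein (chr11:6658506-6677478) had 2.81 RPKM in TGFB1 with miR-9-LOF cells and 11.8 RPKM in miR-9-LOF cells, a ratio of 0.237 (0.177 to 0.315). Ly6c1, a surface antigen, had 12.8 and 38.2 RPKM, a ratio of 0.335 (0.283 to 0.395), and its relatives Ly6c2 and Ly6a fell by 1.25 and 0.91. Because Ly6c1 and Ly6c2 are close in sequence, some of their reads may have been counted for the wrong copy. Pkdcc, a secreted tyrosine kinase, had 3.94 and 11.9 RPKM, and Aqp1, the water channel, had 4.18 and 11.2 RPKM. Socs3, an inhibitor of cytokine signalling, had 6.48 and 16.1 RPKM. Ephx1, a detoxifying epoxide hydrolase, was the most abundant of the 15 largest protein-coding falls, with 51.7 and 105 RPKM. Ccnd1, the G1 cyclin D1, had 32.1 and 56.0 RPKM, the only 1 of 17 measured cyclins, MYC genes and CDK inhibitors to pass the limit.

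Most histone genes fell. Of 66 measured, 48 fell and 0 rose, and 65 of 66 had a change below 0, with a median of -0.66. The deepest was H2bc22, an H2B gene, with 15.9 RPKM in TGFB1 with miR-9-LOF cells and 36.1 RPKM in miR-9-LOF cells. H3c13 had 61.5 and 112 RPKM and H4c3 had 23.3 and 42.7 RPKM. They made up 20.7% of all fallen genes, so 184 fallen genes were not histones. In the control antagomiR pair 20 of the 66 fell, with a median of -0.39, and H4c3 had 24.2 RPKM with TGFB1 and 22.5 RPKM in control. Many histone genes are near-identical to others of the same family, so single members are uncertain, and most histone messages lack a poly(A) tail. Of 25 DNA replication genes, which are used in the same phase of the cell cycle, 0 rose and 1 fell (Gins2), with a median of -0.15, and of 24 mitosis genes 1 rose (Cenpe) and 0 fell. Of 81 cytosolic ribosomal protein genes, 0 rose and 0 fell, and their median was -0.02.

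**Figure D3:**
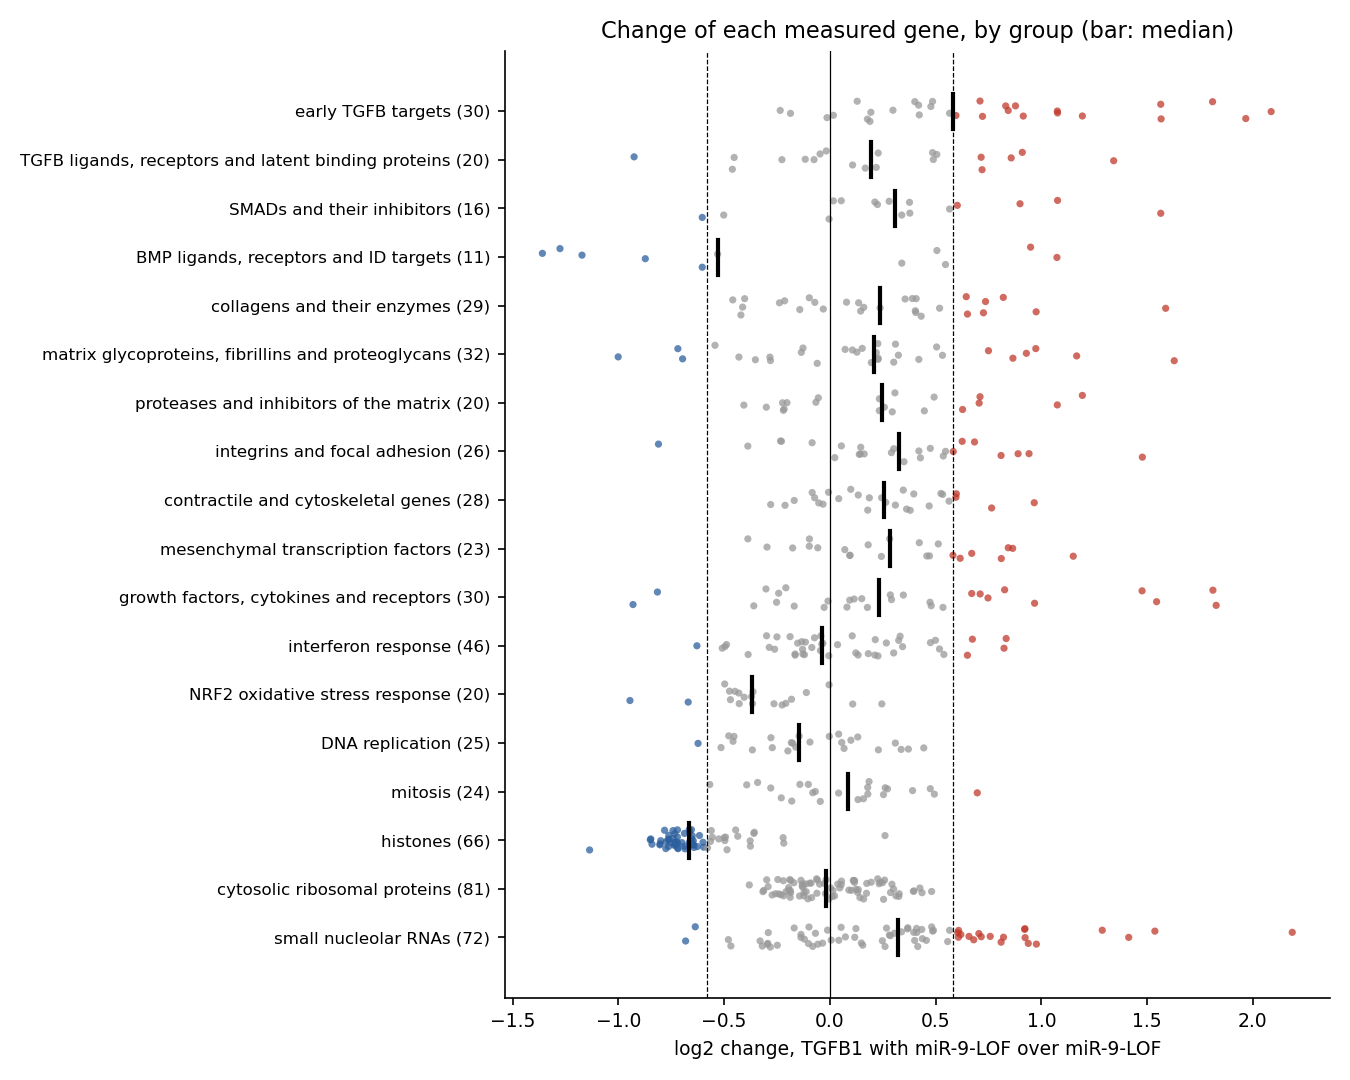
Each point is a measured gene, placed by its log2 change after TGFB1 in miR-9-blocked cells, with the number measured in each group in parentheses; red and blue points passed the limit (dashed lines at 0.58 in either direction), grey points did not, and black bars are medians. Early TGFB targets have the highest median at 0.58, histones the lowest at -0.66, and BMP genes lie on both sides of 0.

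Further groups had few genes past the limit by number. Of 46 interferon response genes 4 rose (8.70%, against 7.13% of all genes): Samd9l, Trim30a, Ifi44 and Eif2ak2. Tap1, the peptide transporter for antigen presentation, fell. Ifi44 had 4.78 RPKM in TGFB1 with miR-9-LOF cells and 2.62 RPKM in miR-9-LOF cells, against 0.354 RPKM with TGFB1 and 0.448 RPKM in control. Of 20 NRF2 targets, which protect against oxidants, 0 rose and 2 fell (10%, against 2.48% of all genes). Their median was -0.37, and 18 of 20 had a change below 0. Gsta4, a glutathione transferase, had 38.6 RPKM in TGFB1 with miR-9-LOF cells and 75.2 RPKM in miR-9-LOF cells, and only 2.03 and 3.15 RPKM with TGFB1 and in control. Of 26 genes of the unfolded protein and amino acid stress responses 4 rose (15.4%, against 7.13% of all genes). Among them were the chaperones Hsp90b1 (282 and 185 RPKM) and Hspa5 (155 and 103 RPKM). The 4 had changes of 0.58 to 0.82, and Hsp90b1, Hspa5 and Pdia3 dropped below the limit without the 3 abundant transcripts in the totals. Of 16 glycolysis genes, 0 rose and 0 fell.

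In the remaining groups the share past the limit varied, beside 7.13% risen and 2.48% fallen over all genes. Of 20 matrix proteases and inhibitors 5 rose (25%) and 0 fell. The metalloprotease Mmp10 and the aggrecanase Adamts4 were among those that rose, beside Timp1 and Adam12. Of 19 chemokines and NF-kB targets 3 rose (15.8%) and 2 fell (10.5%), and the inhibitor Nfkbia was among those that fell (-0.69). Of 18 p53 targets 3 rose (16.7%), Pmaip1 (1.17), Gadd45a (0.94) and Plk2 (0.71). Bbc3, which like Pmaip1 promotes apoptosis, fell (-0.69). Of 15 Wnt pathway genes 3 rose (20%), the ligand Wnt5a, the coreceptor Lrp6 and the factor Lef1. Of 23 genes of cholesterol synthesis and uptake 2 rose (8.70%, against 7.13% of all genes), Hmgcs1 and Idi1. Of 17 super-enhancer factors 2 rose (11.8%), the cohesin subunit Smc3 and its loader Nipbl. Of 75 respiratory chain genes 1 rose, Atp5md. It rested on 31 and 12 reads, and its ratio interval of 0.998 to 4.275 included 1. With the control antagomiR it changed by -0.51.

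Among the 5 genes that the study followed as miR-9 targets, Ncl, the nucleolar protein nucleolin, rose, with 59.6 RPKM in TGFB1 with miR-9-LOF cells and 37.0 RPKM in miR-9-LOF cells (ratio 1.61, 1.56 to 1.67). It dropped to a log2 change of 0.57 without the 3 abundant transcripts in the totals. Zdhhc5, a palmitoyltransferase, had a log2 change of 0.31, Ep300, a histone acetyltransferase, had 6.61 and 5.23 RPKM, Lzts2, a leucine zipper protein, had 19.9 and 23.4 RPKM, and Hdac7, a histone deacetylase, had 11.4 and 15.5 RPKM, all inside the limit. These genes were chosen by the study with its own data in view and are no independent evidence of a direction.

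The same treatment was then set beside the control antagomiR pair, TGFB1 over control, which shares no library with the miR-9-blocked pair. Over the 9209 genes measured in both, 660 rose in miR-9-blocked cells and 244 with the control antagomiR (2.65%), and 225 and 270 fell (2.93% of genes for the control antagomiR). Of the genes that rose, 164 rose in both pairs, which is 24.8% of those risen in miR-9-blocked cells and 67.2% of those risen with the control antagomiR. Of the genes that fell, 107 fell in both, which is 47.6% and 39.6%. The 660 genes that rose in miR-9-blocked cells had a median change of 0.71 there and 0.26 with the control antagomiR, and 579 of them (87.7%) were above 0 with the control antagomiR. The 225 that fell had medians of -0.72 and -0.56. Each set was chosen on its own change. The genes that rose with the control antagomiR had a median change of 0.71 in miR-9-blocked cells and 0.80 with the control antagomiR, and those that fell had medians of -0.49 and -0.76. Across the 9209 genes Pearson's r between the pairs was 0.60 and Spearman's rho 0.54, as a description: the genes share transcript lengths and counting, and low counts add noise. Over the 4663 genes with a mean of 5 RPKM or more in the 4 libraries r was 0.66.

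All 15 early TGFB targets that rose in miR-9-blocked cells also rose with the control antagomiR, and for all 15 the change differed between the pairs by less than the limit. Ccn2 changed by 1.57 in miR-9-blocked cells and 1.56 with the control antagomiR, Ncam1 by 1.97 and 1.98, Lox by 2.09 and 1.96, and Pmepa1 by 1.56 and 1.74. Timp1 changed by 0.71 and 1.10. The difference of the log2 ratios was 0.01 (-0.05 to 0.07) for Ccn2, where the interval covers counting error only. For Timp1 this difference was -0.39 (-0.51 to -0.27), and for Skil 0.53 (0.20 to 0.87). Of the 30 early targets measured, 14 had an interval that left out 0, with 9 above and 5 below. Over the 9209 genes measured in both pairs, 2195 lay above and 883 below. Of the ID genes, Id1 changed by -1.28 in miR-9-blocked cells and -1.31 with the control antagomiR, Id3 by -1.17 and -1.22, and Id2 by -0.87 and -1.23. Their differences of log2 ratios were 0.00 (-0.53 to 0.52), 0.03 (-0.32 to 0.37) and 0.22 (-0.74 to 1.19).

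Levels of these targets were lower with the miR-9 antagomiR, as were those of most genes on this scale. All 15 early targets that rose had lower RPKM in TGFB1 with miR-9-LOF than in TGFB1 cells, and all 15 were lower in miR-9-LOF than in control cells. Of all 30 early targets measured, 23 and 24 were lower, against 65.3% and 71.2% of the 9345 genes. Ccn2 stood at 293 RPKM in TGFB1 with miR-9-LOF cells and 534 RPKM in TGFB1 cells, and at 98.1 RPKM in miR-9-LOF cells and 180 RPKM in control cells. With the 3 abundant transcripts left out of the totals, 13 and 12 of the 15 and 19 and 19 of the 30 were lower, against 27.3% and 40.6% of all genes. For these genes a similar ratio thus stood between lower levels in the miR-9-blocked pair.

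**Figure D4:**
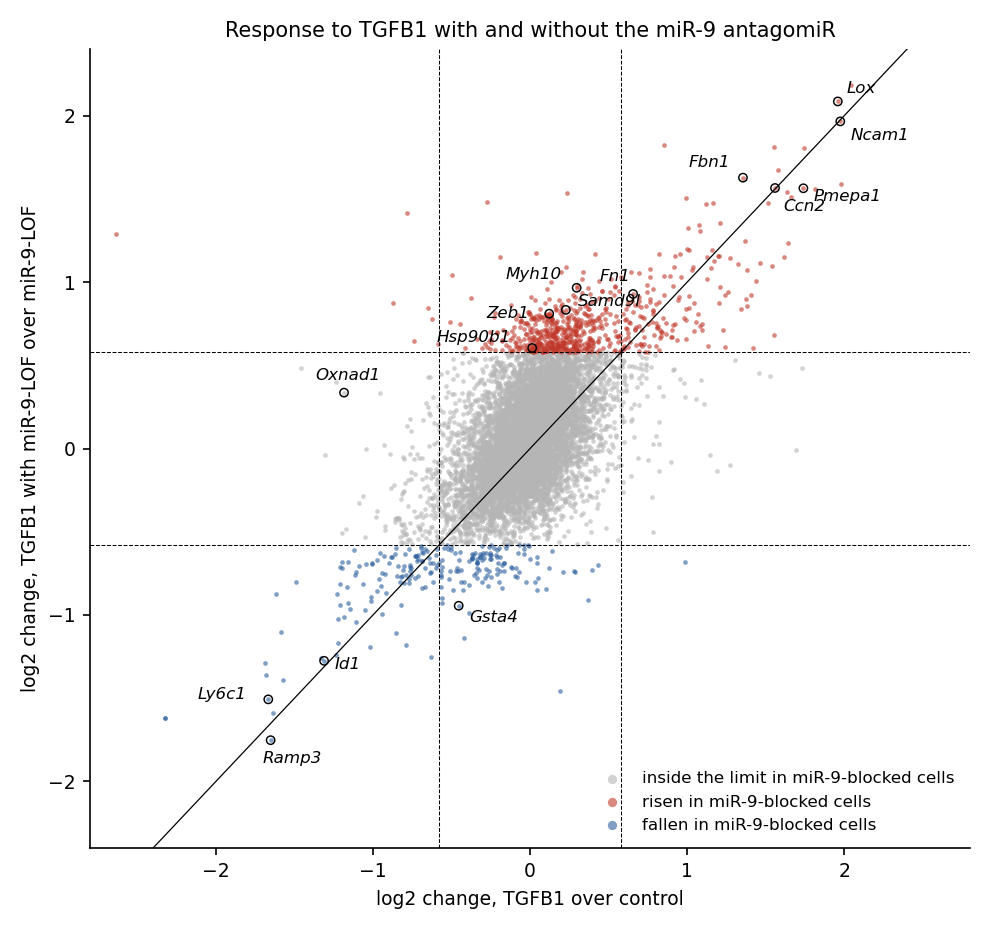
Each point is 1 of 9209 genes measured in both pairs, with the log2 change of TGFB1 over control on the x axis and that in miR-9-blocked cells on the y axis; the solid line marks equal changes and dashed lines the limit. Lox, Ncam1, Ccn2, Id1 and Ramp3 lie near the line of equal changes, and genes such as Myh10, Zeb1 and Hsp90b1 lie above the limit on the y axis and inside it on the x axis.

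Outside these targets, 489 genes rose in miR-9-blocked cells while they stayed inside the limit with the control antagomiR, and for 184 of them the change was larger by 0.58 or more. Over all 9209 genes the change was larger by that much in miR-9-blocked cells for 412 (4.47%) and smaller for 114 (1.24%). With the 3 abundant transcripts left out of all 4 totals, a comparison chosen after seeing the data, the 489 and 184 became 280 and 104, and the 412 and 114 became 318 and 153. Myh10 changed by 0.97 in miR-9-blocked cells and 0.30 with the control antagomiR, with levels of 33.2 and 16.5 RPKM in TGFB1 with miR-9-LOF and miR-9-LOF cells, and 51.8 and 42.0 RPKM in TGFB1 and control cells. Zeb1 changed by 0.81 and 0.12, Smc3, a cohesin subunit, by 0.79 and 0.02, and Hsp90b1 by 0.60 and 0.01. For Smc3 the levels were 10.1 and 5.41 RPKM in TGFB1 with miR-9-LOF and miR-9-LOF cells, and 10.2 and 10.1 RPKM in TGFB1 and control cells. For these genes the miR-9-LOF library was thus the low one of the 4. Among protein-coding genes with a mean of 5 RPKM or more the largest differences between the pairs were those of Oxnad1, Ndufa12, Pet117, Med31 and Siva1. Oxnad1, an oxidoreductase, had 25.9 and 20.3 RPKM in TGFB1 with miR-9-LOF and miR-9-LOF cells, and 8.13 and 19.8 RPKM in TGFB1 and control cells, so that the TGFB1 library was the low one. Differences between the pairs were not tested, since each rests on 4 single libraries.

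Short non-coding RNAs differed most between the pairs. Snord15b, a small nucleolar RNA, had 514 RPKM in TGFB1 with miR-9-LOF cells and 518 RPKM in miR-9-LOF cells, against 638 RPKM in TGFB1 and 197 RPKM in control cells. Of 72 small nucleolar RNAs measured, 20 rose (27.8%) and 2 fell (2.78%) in miR-9-blocked cells, against 7.13% and 2.48% of all genes. With the control antagomiR 32 rose and 5 fell, against 2.65% and 2.93% of all genes measured in both pairs. Of the 72, 12 rose in both pairs. The median reads of the 72 were 38 in TGFB1 with miR-9-LOF and 24 in miR-9-LOF cells. Only 10 of the 20 that rose in miR-9-blocked cells had a ratio interval above 1. Snord61, the largest rise of all, rested on 10 and 1 reads, a ratio of 7.74 with an interval of 1.10 to 336. Of 53 entries with microRNA gene symbols, among them the host transcripts Mir100hg and Mir22hg, 9 rose (17.0%) and 12 fell (22.6%). Only 3 of these 21 calls had an interval that left out 1.

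The change also moved with transcript length. The median log2 change was -0.05 in the shortest of 10 equal bins of genes by length and 0.29 in the longest bin, where transcripts were 5974 to 21600 nt long, 148 genes rose and 7 fell. With the control antagomiR these medians were -0.11 and 0.06. Risen genes had a median length of 3644 nt and fallen genes 1284 nt, against 2664 nt over all genes. When the median of its length bin was subtracted from each gene, an alternative chosen after seeing the data, 432 genes rose and 283 fell. Of the early TGFB targets 16 of 30 then rose, and of the histone genes 44 of 66 fell. Col1a1, Col6a3, Itgav, Ncl and Nipbl no longer passed, at 0.48, 0.45, 0.53, 0.40 and 0.31, whereas Fbn1, Lox, Ccn2, Fn1 and Myh10 kept their calls. The part of length and of the Rn45s share in the counts of risen genes was not tested.

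**Figure D5:**
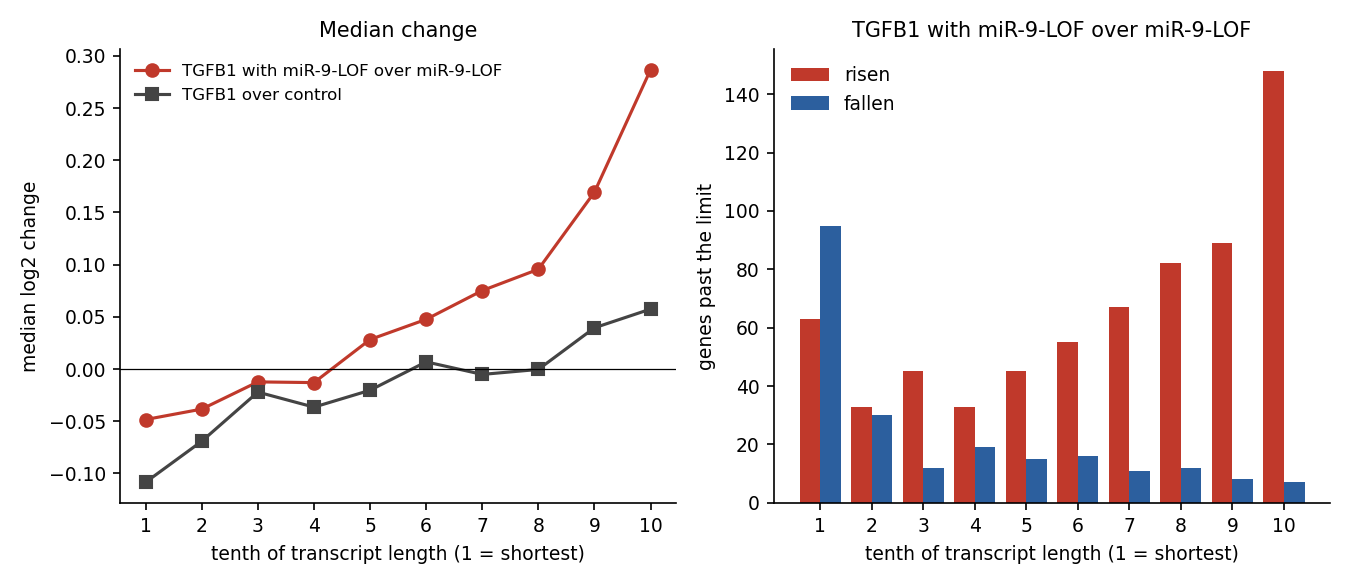
Left, the median log2 change in 10 equal bins of transcript length (1 is the shortest) for both pairs; right, the number of genes that rose and fell in each bin in miR-9-blocked cells. The red median climbs to 0.29 in the longest bin, against 0.06 for the control antagomiR, and fallen genes are most frequent in the shortest bin (95).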

How the data were processed

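Total RNA from MLg cells was sequenced in 4 conditions with 1 library each. Per the study's methods, the authors trimmed single-end reads with Trimmomatic (0.36 in the submitters' processing notes), aligned them to mm10 with Bowtie2, used HOMER to count exon reads of RefSeq transcripts on both strands, and computed RPKM with edgeR. The deposited counts are raw reads per transcript, and the deposited RPKM values have 1 added. A single total per library was worked out from the deposited counts, RPKM values and lengths. RPKM recomputed from the counts with these totals equalled the deposited values. Columns with the authors' own log2 fold changes and RPKM sums were not used.

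For each symbol the transcript with the highest mean RPKM over the 4 libraries was kept, symbols with a mean of 1 RPKM or more over the 2 libraries were members, and log2 changes were taken with a pseudocount of 1 RPKM, against the methods' limit of 0.58. Ratio intervals (95%, exact Clopper-Pearson) were computed from counts with Python 3.11.15 and scipy 1.17.1, and TMM factors with edgeR 4.0.16. Intervals and calls were checked on simulated counts that held only the counting error the intervals assume. This check had no spread between cultures and does not bear on how sure the calls are. With 1 library per condition no test was made, and at the median gene the precision rests on 253 reads in TGFB1 with miR-9-LOF and 177 in miR-9-LOF. Promoters, miR-9 and gene positions are from RefSeq for GRCm38.p6, the assembly of mm10.

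Named genes were the 15 protein-coding genes with the largest rise and the 15 with the largest fall at a mean of 5 RPKM or more, members past the limit of the TGFB, SMAD, early target and BMP lists, up to 6 of each other list, the 5 study-selected targets, leading non-coding transcripts, the 10 largest differences between the pairs each way, and Rn45s, Mir6236, Lars2 and Malat1. Members inside the limit were named where their role matters. The members and lists were chosen with earlier results of these data known. The alternatives were other library totals and scalings, another pseudocount, other filters, other choices of transcript and another limit. The adjustment for length, a minimum of 100 reads and the rescaled counts between the pairs were added after seeing the data. Some genes are not reported here.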

Additional observations from a re-analysis of the deposited data

Results flagged for a closer look

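In 14 results the change went one way in miR-9-blocked cells and the other way with the control antagomiR and either passed the limit in both pairs or, for a named gene, had a counting interval that left out 1 in both. Many other genes had opposite signs without meeting these criteria. None of these differences was tested, because each condition had 1 library. Among longer transcripts, Oxnad1 changed by 0.34 in miR-9-blocked cells and -1.18 with the control antagomiR, Ndufa12, a complex I subunit, by 0.33 and -0.95, Med31, a Mediator subunit, by 0.43 and -0.64, and the non-coding Malat1 by 0.52 and -0.22. The abundant Mir6236 changed by 0.20 and -0.63, and Scarna2 by -0.70 and 0.43. The remaining 8 passed the limit in both pairs in opposite directions, 7 of them were under 200 nt, and all 8 had fewer than 50 reads in 1 or more libraries. They were Gm11715 (0.78 in miR-9-blocked cells and -0.62 with the control antagomiR), Mir1902 (0.88 and -0.87), Mir328 (0.63 and -0.59), Mir3618 (0.65 and -0.74), Mir6925 (0.84 and -0.65), Snora28 (-0.68 and 0.98), Snord2 (1.41 and -0.79) and Snord65 (1.29, with 0 reads in the TGFB1 library of the other pair). For Mir1902, Mir328, Mir3618 and Mir6925 the counting interval of the difference included 0.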

How the results depend on the processing

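The counts of risen and fallen genes, 666 and 232, moved with the scale. They were 407 and 380 with totals without Rn45s and also with the upper quartile, 435 and 350 with TMM factors, 417 and 371 once Rn45s, Mir6236 and Lars2 were left out of the totals, and 417 and 369 with totals of protein-coding transcripts. The median of all genes lay between -0.04 and 0.07 over the alternatives, below 0 under these 5 scales and at a mean of 5 RPKM or more. A pseudocount of 0.1 RPKM gave 1306 and 402, a mean of 5 RPKM or more 275 and 150, every transcript on its own 1292 and 379, and a limit of log2 1 gave 70 and 25. After subtraction of the length bin's median 432 genes rose. Of the 149 named genes past the limit, all kept their direction in each scaling and in the length adjustment. That was bound to hold, because these shifts were smaller than the limit. Calls lost numbered 21 with totals without Rn45s, 17 with TMM, 12 with centred changes and 20 with the length adjustment. No paired analysis was possible because the TGFB1 with miR-9-LOF and miR-9-LOF conditions had 1 library each, which also left no library to drop. A fit of all 4 libraries with TGFB1 and antagomiR as terms could be made but was not run, as it averages the response over both antagomiRs. Depth limited the short RNAs most, since the small nucleolar RNAs had a median of 38 reads in TGFB1 with miR-9-LOF and 24 in miR-9-LOF.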
